A study of Homo sapiens with 6 samples.

Results

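Small nucleolar and Cajal body RNAs were taken from the raw count table of DMS114 cells as the symbols that begin with SNORA, SNORD or SCARNA and a number, together with RN7SL1, RN7SL2, RN7SK, RMRP, RPPH1 and TERC, where the counts summed over all 6 libraries came to 20 or more. The symbol rule found 168 of the 36458 symbols, of which 10 had no count in any library, and 55 reached the count limit. These 55 were 27 box H/ACA RNAs (SNORA), 26 box C/D RNAs (SNORD), RN7SL1 and RMRP. None of the 17 SCARNA symbols reached the limit, nor did TERC, and RN7SL2, RN7SK and RPPH1 were not analysed here. The members were chosen by these summed counts, which use no group labels but are not scaled for depth. The β-alanine libraries together held more counts than the controls, so values after β-alanine weigh somewhat more in the sums. The limit fell between SNORA26, SNORA80E and SNORD73B, with 20 counts each, and SNORD53B, SNORD59A, SNORD72 and SNORD9, with 19 each.

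DMS114 is an established line of human small cell lung cancer. The 3 libraries of the treated group came from cells given β-alanine, a natural amino acid outside the set used for protein synthesis, at 2.5 mM for 48 h, and the 3 controls from cells given the same volume of vehicle. The molecule is labelled polyA RNA. The labels do not say whether the libraries came from separate cultures, and the p-values therefore reflect the scatter of these libraries, which may be only technical.

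Small nucleolar RNAs guide chemical changes of other RNAs by base pairing. Box C/D RNAs direct methylation of the ribose and box H/ACA RNAs direct the conversion of uridine to pseudouridine, mostly on ribosomal RNA, while a few, such as U3 and U17, are needed to cut the ribosomal precursor. Most human snoRNAs are trimmed out of introns of host genes, and they carry no poly(A) tail. Small Cajal body RNAs do the same for spliceosomal RNAs, 7SL RNA is the scaffold of the signal recognition particle that brings secreted proteins to the endoplasmic reticulum, and RMRP is the RNA of the endonuclease RNase MRP.

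The sequences of the U3 copies are shown because the largest fold changes lay there, and because near-identical copies decide how reads can be assigned. They are GENCODE release 29 transcripts on GRCh38, written as DNA from 5′ to 3′. RN7SL1, on chromosome 14, also has a near-identical copy, RN7SL2, with which it shares 295 of 300 aligned positions.
The U3 copies among the members are SNORD3A (chr17:19188016-19188232, plus strand), SNORD3B-1 (chr17:19061912-19062128, plus strand) and SNORD3B-2 (chr17:19063920-19064136, minus strand). SNORD3B-1 and SNORD3B-2 were identical over all 217 bases, and SNORD3A differed from both at 1 base. Capitals mark TGATGA, the letters of the C box, and the last CTGA, those of the D box.
SNORD3A: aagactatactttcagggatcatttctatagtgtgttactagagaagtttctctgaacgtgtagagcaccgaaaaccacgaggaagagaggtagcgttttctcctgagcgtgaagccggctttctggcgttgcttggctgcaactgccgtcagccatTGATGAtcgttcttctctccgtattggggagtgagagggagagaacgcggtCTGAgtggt
SNORD3B-1: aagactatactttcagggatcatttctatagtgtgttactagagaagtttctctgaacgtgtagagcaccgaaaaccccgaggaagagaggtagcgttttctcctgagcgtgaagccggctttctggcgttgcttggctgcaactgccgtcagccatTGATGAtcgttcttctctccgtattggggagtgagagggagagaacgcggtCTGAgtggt
A typical intronic member of each class is shown for comparison, SNORD104 (chr17:64146083-64146152, plus strand) with both boxes in capitals and SNORA66 (chr1:92840719-92840851, plus strand) with the ACA box in capitals.
SNORD104: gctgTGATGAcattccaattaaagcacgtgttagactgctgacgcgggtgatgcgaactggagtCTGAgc
SNORA66: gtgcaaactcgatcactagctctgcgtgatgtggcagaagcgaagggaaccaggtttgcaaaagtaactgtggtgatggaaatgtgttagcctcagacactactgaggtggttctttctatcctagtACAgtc
The letters TGATGA lay within the first 20 bases of 18 of the 25 SNORD members with a sequence, against 0.575% of all 206635 GENCODE transcripts of at least 40 bases. CTGA lay within the last 20 bases of 25 of 25, against 9.38%, and ACA lay 3 bases from the end of 22 of 26 SNORA members, against 2.37%. Only the transcribed strand was searched. These motifs describe the classes and were not compared with the response.

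Levels were low throughout. The molecule is labelled polyA RNA and snoRNAs carry no poly(A) tail, so their counts need not reflect their abundance in the cells. Over the 6 libraries, which held 14433801 to 32909568 counts each, the 55 members had 4566 counts together and a median of 45 each. RN7SL1 had 1167, SNORA73B 365, SNORD3B-1 223 and SNORA72 190, and 17 members had 60 or more. Over all genes, the chi-square per gene between β-alanine library 1 and the other β-alanine libraries was 4.23 and 4.86, and between it and the controls 4.69 to 5.58. Libraries 2 and 3 of that group stood at 2.20 from each other and at 12.05 to 15.87 from the controls, so library 1, which has the fewest counts, stood apart from them; the statistic also grows with depth. Without it the log2 change of RN7SL1 was 1.01, still the only member called, and the genes called numbered 3200 higher and 3273 lower. Levels below are CPM, counts scaled to a common library size after TMM normalization. Fold changes are on the log2 scale, β-alanine over control, from edgeR's quasi-likelihood test on all genes with at least 20 counts, and a call is an adjusted p under 0.05 with Benjamini-Hochberg adjustment over all 20874 genes tested.

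One of the 55 members was called after β-alanine, RN7SL1, which rose, and none fell in edgeR, DESeq2 or limma-voom. Over all genes tested the share called was 22.6% in either direction, 11.3% higher and 11.3% lower. At an unadjusted p under 0.05 in edgeR there were 3 members higher and 0 lower, against 33.4% of all genes. These shares are not like for like, since snoRNA members were measured less precisely than most genes, as given below. DESeq2's Wald test also called RN7SL1 alone, but gave an adjusted p for only 3 of the 55. limma-voom called RN7SL1 and SNORD3A. The median log2 change was 0.10 over the members and -0.0032 over all genes tested, and 31 members lay above 0 and 24 below.

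**Figure D1:**
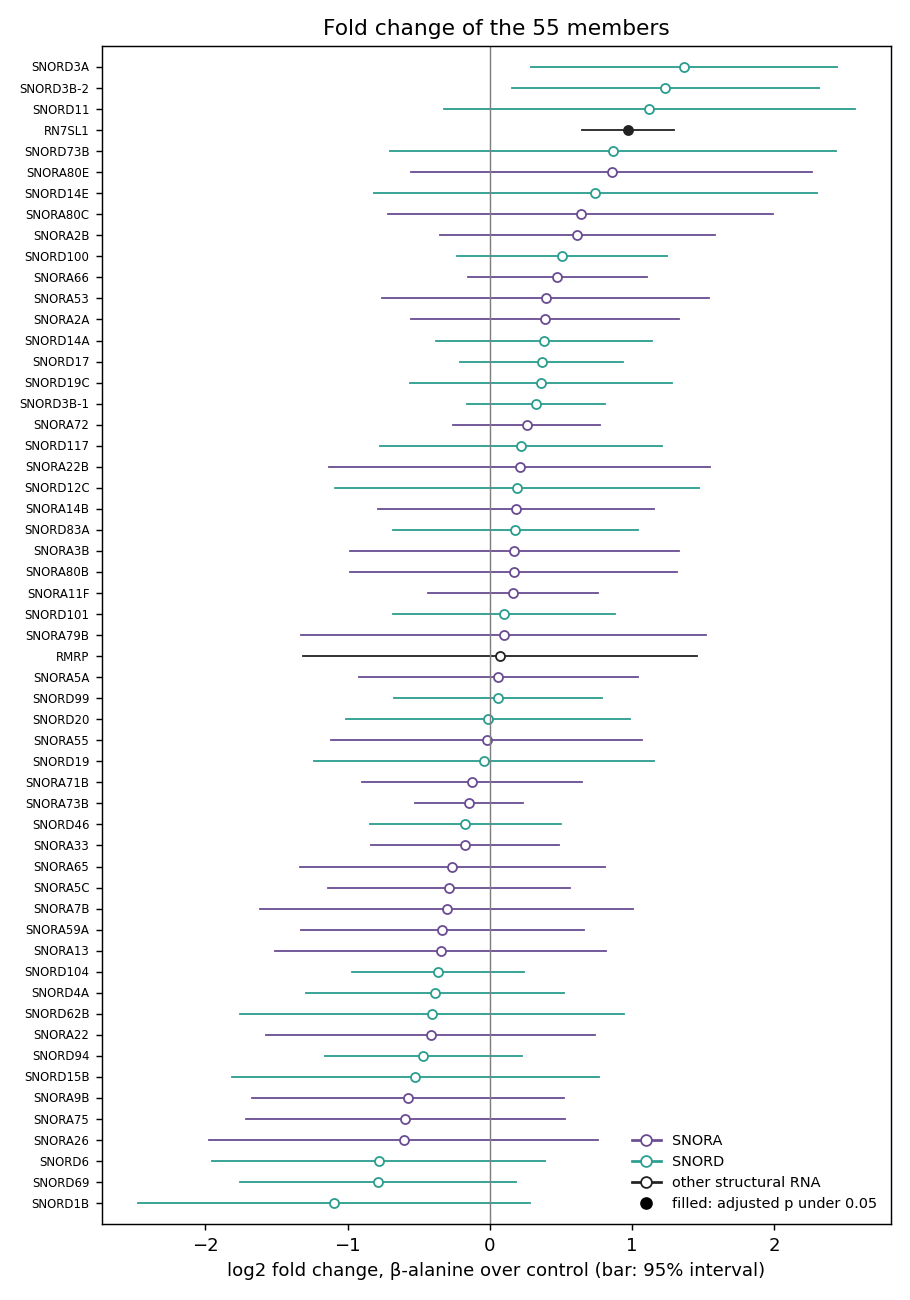
The log2 fold change of each of the 55 members (points) with its 95% interval (bars), ordered by size and coloured by class, with filled points for an adjusted p under 0.05. RN7SL1 is the only filled point, and the intervals of SNORD3A and SNORD3B-2 are the only others that do not reach 0.

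7SL RNA, encoded by RN7SL1, had 146, 385 and 298 counts after β-alanine, against 96, 130 and 112 in the controls, both in the order of libraries 1, 2 and 3. These were 10.2, 14.0 and 8.90 CPM after β-alanine and 5.20, 5.91 and 5.70 CPM in controls. The groups did not overlap, and β-alanine library 2 was the highest. The control mean was 5.60 ± 0.367 CPM and the β-alanine mean 11.02 ± 2.64 CPM (SD, n = 3 per group), a ratio of 1.97-fold. The log2 change was 0.97 ± 0.15 (SE), with a 95% interval of 0.65 to 1.30 (edgeR, adjusted p = 0.0001765), higher in 3 of 3 libraries. In bulk RNA, more cells that make it and more of it per cell cannot be told apart. Its call held under all 14 alternative settings in which it was refitted, with log2 changes of 0.74 without β-alanine library 2 to 1.14 without β-alanine library 3. Per kilobase of its 299 bases, its level was 18.7 CPM in controls and 36.9 CPM after β-alanine, the highest of the members in both groups.

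The other 7SL symbols that were counted, RN7SL2 not among them, were compared as a sum. The 208 symbols that begin with RN7SL and a number, chosen for comparison after the values were seen and mostly labelled as pseudogenes by a final P, summed to 12.8, 12.3 and 12.7 CPM in β-alanine libraries 1, 2 and 3. In control libraries 1, 2 and 3 they summed to 11.5, 12.6 and 11.6 CPM. The groups overlapped, with means of 12.6 ± 0.236 and 11.9 ± 0.636 CPM (SD, n = 3 per group). Reads that fit several copies, RN7SL2 included, may have been dropped or assigned to one of them, so the split between RN7SL1 and its copies is uncertain.

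RN7SL1 overlaps the GENCODE span of RPS29, a ribosomal protein gene on the opposite strand. RPS29 stood at 229 ± 17.4 CPM in controls and 212 ± 21.5 CPM after β-alanine (SD, n = 3 per group). Its log2 change was -0.11 ± 0.08 (SE; edgeR, adjusted p = 0.3925). A GENCODE transcript named AL139099.4 lies over RN7SL1 on the same strand, so counts at the locus depend on the annotation, which is not given in the sources used here.

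**Figure D2:**
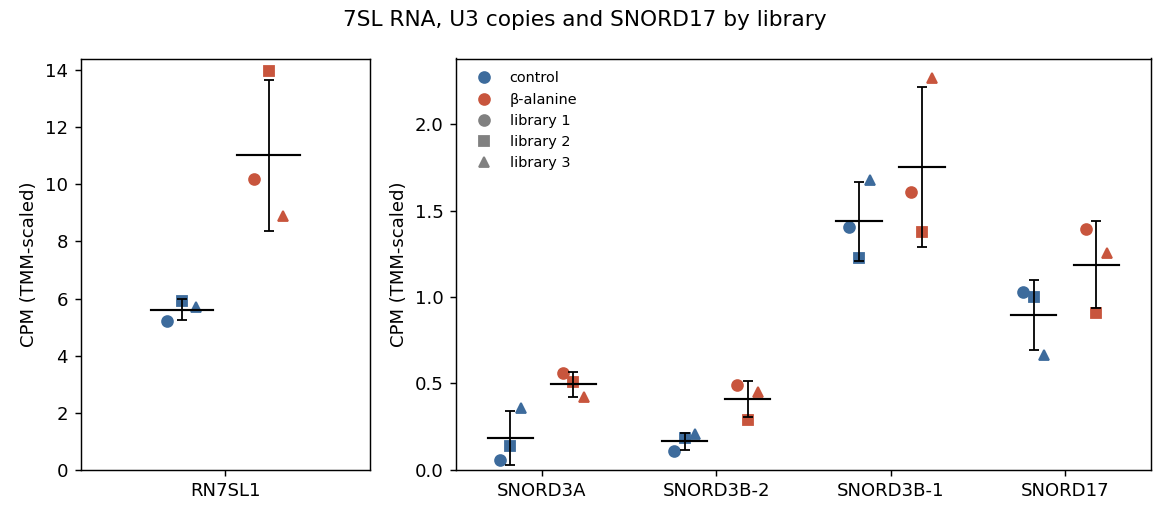
CPM of RN7SL1 (left) and of SNORD3A, SNORD3B-2, SNORD3B-1 and SNORD17 (right) in each library, with control in blue, β-alanine in red and the library number by marker shape. Horizontal lines are means and bars are SD (n = 3). RN7SL1, SNORD3A and SNORD3B-2 do not overlap between groups, while SNORD3B-1 and SNORD17 do.

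U3, the most abundant box C/D RNA of the nucleolus, is needed for the first cuts of the ribosomal precursor. Its copies SNORD3A and SNORD3B-2 had the largest log2 changes of the 55 members and are named here after their values were seen. SNORD3A had 8, 14 and 14 counts after β-alanine and 1, 3 and 7 in the controls, again by library number. In CPM these were 0.559, 0.508 and 0.418 against 0.0541, 0.136 and 0.356. The groups did not overlap, with control library 3 close to β-alanine library 3. Its log2 change was 1.37 ± 0.53 (SE), with a 95% interval of 0.29 to 2.45, and it was not called (edgeR, adjusted p = 0.06039). limma-voom called it, with an adjusted p of 0.0376, and edgeR called it without control library 3 (0.01871), within a range of 0.01871 to 0.5172 over its alternatives. Its log2 change was 2.23 without control library 3, 0.98 without control library 1 and 0.86 after thinning to the smallest library.

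SNORD3B-2 had 7, 8 and 15 counts after β-alanine and 2, 4 and 4 in controls, in library order. In CPM these were 0.489, 0.290 and 0.448 against 0.108, 0.182 and 0.204, which did not overlap. Its log2 change was 1.24 ± 0.53 (SE; edgeR, adjusted p = 0.09327). SNORD3B-1, the copy with most counts, had 1.61, 1.38 and 2.27 CPM after β-alanine and 1.41, 1.23 and 1.68 CPM in controls, and the groups overlapped. Its log2 change was 0.33 ± 0.24 (SE), with a 95% interval of -0.16 to 0.81. Since SNORD3B-1 and SNORD3B-2 have the same sequence, reads inside them cannot be told apart, and the separate values of the copies are uncertain. In GENCODE each of the 3 genes also has a longer transcript that runs beyond the mature RNA, and whether the counts include it is not given in the sources used here.

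Summed over the 3 copies, a sum chosen after the values were seen and given with no test, U3 stood at 2.65, 2.18 and 3.14 CPM in β-alanine libraries 1, 2 and 3. It stood at 1.57, 1.55 and 2.24 CPM in control libraries 1, 2 and 3. β-alanine library 2 lay just below control library 3, so the groups overlapped. The means were 2.66 ± 0.479 and 1.79 ± 0.394 CPM (SD, n = 3 per group), a 1.49-fold ratio.

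The summed level of the other box C/D RNAs differed by less than its spread between libraries. The 23 SNORD members other than U3 summed to 9.56, 9.22 and 9.88 CPM after β-alanine and 9.64, 9.96 and 9.22 CPM in controls, in library order. The ranges overlapped almost fully, with means of 9.56 ± 0.332 and 9.60 ± 0.372 CPM (SD, n = 3 per group). None of the 26 SNORD members was called, 2 had an unadjusted p under 0.05, and log2 changes ran from -1.10 for SNORD1B to 1.37 for SNORD3A with a median of 0.14.

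SNORD17, a guide for ribosomal RNA in an intron of SNX5, had 1.40, 0.908 and 1.25 CPM after β-alanine and 1.03, 1.00 and 0.662 CPM in controls. Its groups overlapped, with a log2 change of 0.37 ± 0.28 (SE) and a 95% interval of -0.21 to 0.94. SNORD104, in an intron of SNHG25, had 0.489, 0.799 and 0.956 CPM after β-alanine and 0.812, 1.18 and 1.07 CPM in controls, a log2 change of -0.36 ± 0.30 (SE). SNORD94, which guides methylation of the U6 spliceosomal RNA, had 0.279, 0.581 and 0.776 CPM against 0.704, 0.864 and 0.917 CPM, a log2 change of -0.47 ± 0.34 (SE). Both overlapped between groups, and their lowest value was in β-alanine library 1. SNORD46 and SNORD99 had log2 changes of -0.17 ± 0.33 and 0.06 ± 0.36 (SE). SNORD100, which shares the host RPS12 with SNORD101 and SNORA33, had 11, 14 and 25 counts against 9, 11 and 8, without overlap in CPM, a log2 change of 0.51 ± 0.36 (SE). Its neighbours SNORD101 and SNORA33 stood at 0.10 ± 0.38 and -0.17 ± 0.32 (SE) on the log2 scale.

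The sum of the box H/ACA RNAs also differed by less than its spread. The 27 SNORA members summed to 10.3, 13.8 and 13.9 CPM in β-alanine libraries 1, 2 and 3 and to 12.4, 12.2 and 14.1 CPM in control libraries 1, 2 and 3. β-alanine library 1 was the lowest of the 6, and the other libraries of both groups lay together. The means were 12.7 ± 2.08 and 12.9 ± 1.05 CPM (SD, n = 3 per group), a log2 ratio of -0.026, or 0.11 without β-alanine library 1. None of the 27 was called or had an unadjusted p under 0.05, and log2 changes ran from -0.61 for SNORA26 to 0.86 for SNORA80E with a median of 0.06.

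SNORA73B, one of the genes of U17, which acts in cutting the ribosomal precursor, had 2.23, 2.29 and 2.99 CPM after β-alanine and 2.82, 2.36 and 3.36 CPM in controls. Its log2 change of -0.15 ± 0.18 (SE) had a 95% interval of -0.52 to 0.23, the narrowest among the snoRNAs. SNORA72, within RPL30, had 1.33, 2.03 and 1.16 CPM against 1.41, 1.18 and 1.22 CPM, with β-alanine library 2 alone above the controls. SNORA66, within RPL5, had 0.838, 1.31 and 1.05 CPM against 1.19, 0.546 and 0.662 CPM, a log2 change of 0.48 ± 0.31 (SE). Both overlapped between groups. SNORA11F and SNORA71B had log2 changes of 0.16 ± 0.29 and -0.13 ± 0.38 (SE). SNORA80E, named after its values were seen, was the only SNORA member whose groups did not overlap, with 2, 6 and 6 counts against 1, 3 and 2.

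In all, the groups did not overlap for 5 members (RN7SL1, SNORD3A, SNORD3B-2, SNORD100 and SNORA80E), each higher after β-alanine. This was 9.09% of the members, against 34.5% of all genes tested in either direction and 17.5% in the direction of higher values. These shares are not like for like. The 95% interval reached a median of 1.00 on the log2 scale to either side for snoRNA members, against 0.23 over all genes tested.

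**Figure D3:**
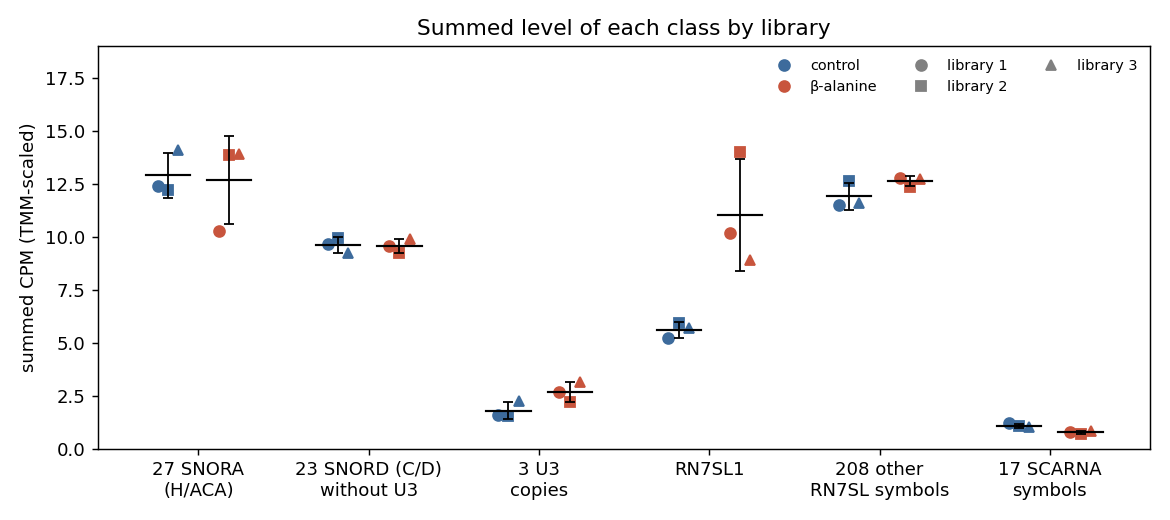
Summed CPM per library for 27 SNORA members, 23 SNORD members without U3, the 3 U3 copies, RN7SL1, 208 other RN7SL symbols and 17 SCARNA symbols, with control in blue, β-alanine in red, lines for means and bars for SD (n = 3). RN7SL1 and the SCARNA sum are the only sets of the 6 whose groups do not overlap.

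RMRP had 1, 4 and 7 counts after β-alanine and 1, 3 and 5 in controls, which is 0.141 ± 0.0697 and 0.148 ± 0.101 CPM (SD, n = 3 per group). Its log2 change of 0.07 ± 0.68 (SE) had a 95% interval of -1.32 to 1.46, so at this depth no difference was detectable. TERC, the RNA of telomerase, had 1 count in the β-alanine libraries together and 2 in the controls. The 17 SCARNA symbols, none a member, had 11, 19 and 28 counts after β-alanine and 22, 23 and 20 in the controls, by library number. They summed to 0.768, 0.690 and 0.836 CPM after β-alanine, below the 1.19, 1.05 and 1.02 CPM of the controls, with no overlap. Pooling the libraries gave 0.770 CPM after β-alanine (0.584 to 0.995, exact 95% Poisson interval) and 1.08 CPM in controls (0.835 to 1.38). The intervals, which cover counting error only, overlapped. The SNORA symbols under the limit summed to 2.13 ± 0.276 and 1.87 ± 0.370 CPM, and the SNORD symbols under it to 2.10 ± 0.250 and 2.38 ± 0.378 CPM (SD, n = 3 per group, β-alanine first).

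Depth set the precision of each value. The 95% interval of a snoRNA member reached a median of 1.00 on the log2 scale to either side of its value, against 0.23 over all genes tested, and 0.38 for SNORA73B, the best measured. The interval lay wholly within a 2-fold change in either direction for 11 of the 53 snoRNA members. For the other 42 a change of 2-fold in at least one direction lay inside the interval.

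**Figure D4:**
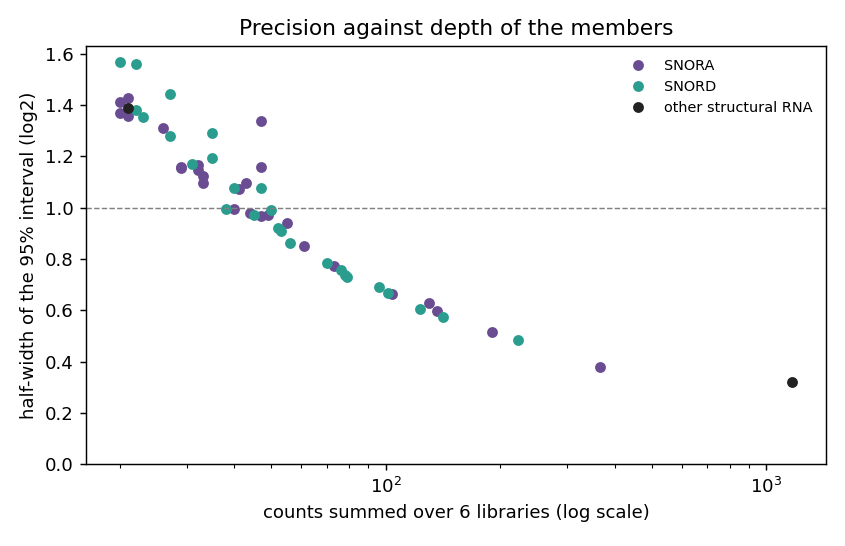
Reach of the 95% interval to either side of the log2 fold change (vertical axis) against the counts summed over 6 libraries (log axis) for the 55 members, coloured by class; the dashed line marks 1, a 2-fold change. Among the snoRNA members the reach falls from up to 1.57 near 20 counts to 0.38 for SNORA73B, and RN7SL1 lies lower still.

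Host genes were found by position for 48 of the 53 members with a strand in GENCODE, and 47 of these hosts were tested, 41 of them distinct. All but 2 of the 48 members lay clear of the exons of their host, those being RN7SL1, under AL139099.4, and SNORA53 in SLC25A3, which meets only an exon of a transcript with a retained intron. No spanning gene on the same strand was found for the 3 U3 copies, RMRP and SNORA11F. Of the 41 hosts 5 rose and 9 fell, with a median log2 change of -0.03. Over all genes tested, 11.3% were called higher and 11.3% lower. PABPC4, a poly(A)-binding protein gene and the host of SNORA55, changed by -0.36 ± 0.04 (SE; edgeR, adjusted p = 4.226e-07), while SNORA55 stood at -0.02 ± 0.53. CCNB1IP1, the host of SNORA79B, rose by 0.57 ± 0.07 (SE; edgeR, adjusted p = 5.065e-07), while SNORA79B stood at 0.10 ± 0.70. Apart from SNHG25, hosts of the most abundant members changed little. SNHG12, the host of SNORD99, changed by -0.22 ± 0.07, and RCC1, that of SNORA73B, by 0.12 ± 0.04 (SE), both called. SNHG3, which also spans SNORA73B on the same strand, was not called, at 0.02 ± 0.05 (SE; edgeR, adjusted p = 0.844). SNX5, RPL5, RPL30, PTCD3, RPS12, SNHG17 and SNHG25, hosts of other members named above, were not called. SNHG25, the host of SNORD104, was poorly measured, at 0.321 CPM in controls and 0.263 CPM after β-alanine. Its log2 change of -0.38 ± 0.52 (SE) does not show whether it changed. Member and host had log2 changes of the same sign in 27 of 47 pairs, some of which share a host. Since the use of strand in counting is not stated, reads of the 8 members that a gene on the other strand overlaps cannot be told from that gene.

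**Figure D5:**
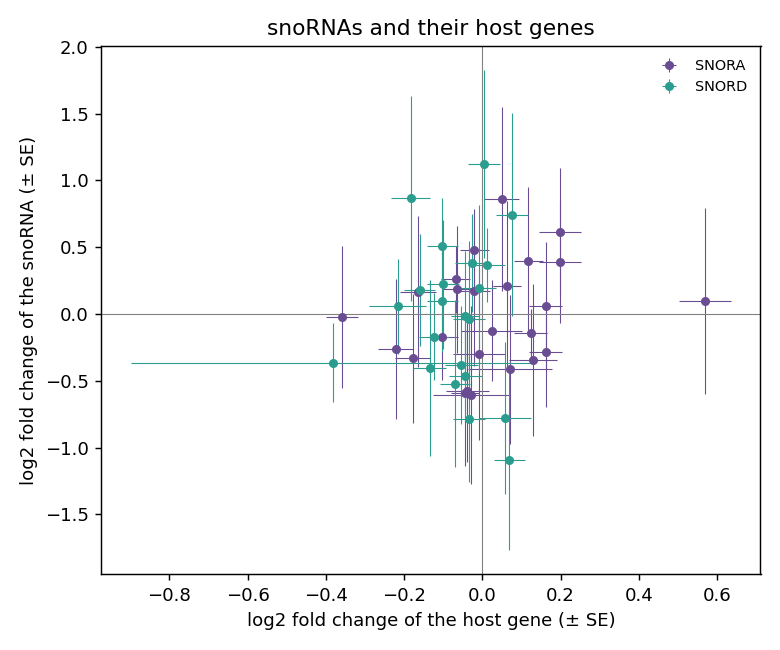
Log2 fold change of 47 snoRNAs (vertical axis) against that of their host gene (horizontal axis), both with SE bars, coloured by class. Host values run from -0.38 to 0.57, while those of the snoRNAs spread from -1.10 to 1.12 with wide bars.

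Messages for the proteins that bind these RNAs changed modestly. The share to read beside the counts of this and the following lists is 11.3% higher and 11.3% lower over all genes tested. None of the 6 box H/ACA proteins was called. Of the 4 box C/D proteins, FBL, the methyltransferase, fell by 0.11 ± 0.04 (SE) on the log2 scale and the other 3 were not called. Among 11 assembly factors 2 rose and 1 fell, NUFIP1 rising by 0.19 ± 0.07, RPAP3 by 0.13 ± 0.05 and TGS1, the cap methyltransferase, falling by 0.15 ± 0.05 (SE). Of 15 genes for Cajal body and SMN complex proteins 2 rose, STRAP by 0.25 ± 0.04 and GEMIN2 by 0.29 ± 0.08 (SE).

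Of the 8 genes for proteins of the signal recognition particle and its receptor, 5 rose and 1 fell, with a median log2 change of 0.14. SRP54, which binds the signal peptide, rose by 0.28 ± 0.05 and SRPRA, a receptor subunit, by 0.22 ± 0.05, while SRP68 changed by -0.36 ± 0.04 (SE). Of 31 genes for RNA polymerase III and its factors, which transcribe 7SL RNA and RMRP, 5 rose and 4 fell. The 3 with the smallest p all fell: GTF3C3 changed by -0.52 ± 0.05, BRF1 by -0.29 ± 0.05 and BDP1 by -0.22 ± 0.04 (SE). Those that rose included SNAPC5, by 0.26 ± 0.07, and BRF2, by 0.23 ± 0.05 (SE). Among 11 RNase P and MRP protein genes 3 rose, RPP30 by 0.24 ± 0.05, RPP40 by 0.30 ± 0.08 and RPP14 by 0.16 ± 0.05 (SE). Of 7 genes of the 7SK particle and P-TEFb, 3 rose (CCNT1 by 0.30 ± 0.04, LARP7 by 0.26 ± 0.07, HEXIM1 by 0.22 ± 0.04, SE) and 1 fell.

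The list of 4 genes linked to telomerase held TERT, TEP1, PARN and TENT4B. TEP1 rose by 0.27 ± 0.08 and TERT changed by -0.21 ± 0.08 (SE), while PARN and TENT4B were not called. Of 21 genes for trimming and the nuclear exosome 5 rose and 1 fell, EXOSC4 by 0.38 ± 0.06, RBM7 by 0.32 ± 0.07 and MPHOSPH6 by -0.35 ± 0.08 (SE). Of 19 genes of the poly(A) machinery none rose and 2 fell, PABPC4 as above and CPSF4 by 0.37 ± 0.06 (SE).

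Symbols of other RNAs without a poly(A) tail moved in part. The 473 symbols of spliceosomal, U7, Y and vault RNAs and their copies are mostly labelled as pseudogenes by a final P. Their sum therefore need not reflect the functional RNAs. It was 21.4, 23.6 and 23.5 CPM in β-alanine libraries 1, 2 and 3. In control libraries 1, 2 and 3 it was 22.1, 21.3 and 24.3 CPM, and the groups overlapped. Of the 40 tested none rose and 1, the U6 pseudogene RNU6-26P, fell. Replication-dependent histone messages, which mostly end without a poly(A) tail, summed to 142, 174 and 174 CPM after β-alanine and 119, 108 and 114 CPM in controls, and 16 of the 32 tested rose. The part of the histone difference in the RN7SL1 result was not tested.

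The label of the cells was checked against markers. YAP1 stood at 124 ± 5.05 CPM in controls, SYP at 61.0 ± 4.15 and CHGA at 19.6 ± 2.07 CPM, while INSM1 and POU2F3 were under 0.5 CPM (SD, n = 3). SYP and CHGA rose and NCAM1 fell after β-alanine. Of 6 fibroblast markers 5 were tested and 3 fell, among them COL3A1 from 876 ± 22.5 to 691 ± 53.0 CPM, COL1A2 was near 0 in both groups, and their sum ran from 904 to 1012 CPM after β-alanine and from 1141 to 1183 CPM in controls. The 4 blood cell markers in the table, 1 of them with no count, summed to at most 0.227 CPM in any library. The part of the fibroblast marker difference in the RN7SL1 result was not tested.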

How the data were processed

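Raw counts per gene symbol for 6 DMS114 libraries (3 per group) were deposited by the authors. The submitters' processing notes name STAR 2.7.3a and featureCounts 2.0.1 with GRCh38, beside Trimmomatic 0.39, DESeq2 and bcl2fastq. For annotation, strand use and reads with several matches the setting is not given in the sources used here.

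Groups came from the sample titles. Genes with at least 20 counts over all 6 libraries were kept, a limit that uses no group labels, so every member was tested. The filterByExpr filter would keep 17 of 55. Libraries were TMM-scaled and tested with edgeR 4.0.16 (quasi-likelihood, robust, no covariate, two-sided, Benjamini-Hochberg, threshold 0.05) in R 4.3.3. SE is the log2 change over the square root of F, and 95% intervals use the test's degrees of freedom. Chi-square per gene between libraries within a group was 1.97 to 4.86, above sampling noise. None was therefore counted as a repeat sequencing of the same library. This value cannot show whether libraries came from separate cultures. Alternatives used DESeq2 1.42.0, limma 3.58.1, other scalings and filters, a replicate block and each library left out; thinning to the smallest library and the sums over U3 and other RN7SL symbols were added after seeing the data. Hosts are GENCODE release 29 genes on the same strand that span a member, the one with most counts where several do; SNORD19C and SNORA80C had no entry there. Positions of members for levels per kilobase came from RefSeq GRCh38.p14. Copies were aligned with Biopython 1.88, and figures drawn with matplotlib 3.10.9.

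Named members were RN7SL1, RMRP, the 6 SNORA and 6 SNORD with most counts and every called member, with their hosts and up to 3 called genes per pathway list. The members and lists were chosen with earlier results of these data known. Some items are not reported here.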

Additional observations from a re-analysis of the deposited data

How the results depend on the processing

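The rise of RN7SL1 was called under all 14 refits, with adjusted p-values from 1.226e-14 to 0.003458 by the tool of each refit, and no member fell under any alternative run. The count of members that rose was 2 in limma-voom, and 1 to 2 with one library left out, the second being SNORD3A without control library 3 (edgeR, adjusted p = 0.01871). With one library left out, the genes that rose numbered 1417 to 3200 and those that fell 1480 to 3273, lowest without β-alanine library 2 or control library 2. After thinning to the smallest library, the log2 ratio of summed CPM was -0.0825 for SNORD without U3 (-0.0072 unthinned) and 0.21 for the other RN7SL symbols (0.083 unthinned); the cause was not tested. Uncalled members whose sign turned after thinning were SNORA73B (0.075), SNORA71B (0.16) and SNORD99 (-0.34), and RMRP turned with the replicate block (-0.081). With one library left out, log2 changes crossed 0 for SNORA72 (-0.057 to 0.47), SNORA71B (-0.29 to 0.14), SNORA33 (-0.35 to 0.022), SNORD46 (-0.37 to 0.077), SNORD99 (-0.18 to 0.22) and RMRP (-0.28 to 0.26). Same-numbered libraries correlated at 0.102, -0.002 and 0.175 in their deviations from the group means. Differently numbered ones correlated at -0.162 to 0.029. With so few libraries these values cannot settle whether the numbers pair them. With the replicate block 2474 genes rose and 2608 fell, against 2358 and 2367 without it, and 1 member rose. Counts of 20 to 365 per snoRNA limit what these libraries can show.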
